A study of Mus musculus with 72 samples.

Results

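The 40 genes described here encode proteins of DNA replication and mitosis, and they were taken by name from the symbol column of a table of gene expression in mouse pancreatic islets. All 40 listed genes were found among the 14604 genes of the table. Of these, 13 act in DNA replication, as subunits or partners of the replicative helicase, as polymerase and sliding clamp, in the synthesis of nucleotides, or as the S-phase cyclin Ccne1. The other 27 act from late S phase to the end of mitosis, in chromosome structure, mitotic entry, the spindle checkpoint, the kinetochore, the mitotic kinases and the spindle.

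A dividing cell first loads the MCM helicase on its DNA, then copies the DNA with polymerases held in place by the clamp PCNA, using nucleotides made by ribonucleotide reductase and thymidylate synthase. In mitosis the kinase CDK1 with its cyclins drives condensation of the chromosomes, kinetochores attach them to the spindle, and the anaphase-promoting complex lets the sister chromatids part. Most of these transcripts are abundant only in cycling cells. E2F factors act on the promoters of replication genes, and the MuvB complexes with B-MYB and FOXM1 act on promoters of mitosis genes through CHR elements. Many promoters of mitosis genes also hold CCAAT boxes. Adult islets hold few dividing cells, and beta cells, the insulin-producing majority, are known to divide more when the demand for insulin grows.

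The study compared islets from 3 inbred mouse strains, C57BL/6J, DBA/2J and also BALB/cJ. Mice ate a fat-rich diet (HFD) or, as controls, regular chow (RC), and islets were taken on day 5, 13 or 33, which gives 18 groups. All mice were male and given as 8 weeks old, and the labels name no engineered allele and no agent other than the diet. Of the groups, 15 had 4 libraries, while RC day 33 of C57BL/6J, HFD day 13 of DBA/2J and RC day 33 of DBA/2J had 3, so 69 libraries were used (35 HFD and 34 RC). Each library was made from 120 to 150 hand-picked islets of 1 mouse, released with Liberase and kept in culture overnight in every group, so transcripts were measured after that culture and p-values measure the spread between mice.

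Values are log2 CPM, that is the base-2 logarithm of read counts scaled to a common library size as the authors normalized them, and 1 unit is a doubling. The libraries held 12292621 to 34591079 reads in the 14604 genes of the table, with a median of 22756199. The list of 10 beta cell markers had a mean of 10.5 to 11.4 log2 CPM in every library, which matches the labelled tissue. Because whole islets were sequenced, fewer cycling cells and less RNA per cycling cell cannot be told apart, nor can the cell type that divides. Reads of all strains were placed on the GRCm38 reference, which is the C57BL/6J sequence, and the part this plays in differences between strains was not tested.

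The promoters show what most of the mitosis genes share that the choice of genes did not use. Promoter windows of 250 bases before to 50 bases after the transcript start (RefSeq, GRCm38.p6) matched 32 of the 40 genes. On either strand, a CHR match was TTTGAA, the usual form of the element, or its variant TTCGAA. The CCAAT box was searched for as spelled, and an E2F match was TTTCCCGC, TTTGGCGC, TTTCGCGC or TTTGCCGC, with overlapping matches counted separately. The window of Rrm1, the gene of lowest adjusted p by diet, held 2 CCAAT matches and no CHR or E2F match, and is not printed. The 4 windows printed here, written 5′ to 3′ on the strand of the gene, are examples, and capitals mark the matches. Bub1, Top2a and Cdk1 were among the genes called lower under HFD, and Mcm6 had the widest gap between strains.
Bub1, chr2:127831810-127832109, minus strand: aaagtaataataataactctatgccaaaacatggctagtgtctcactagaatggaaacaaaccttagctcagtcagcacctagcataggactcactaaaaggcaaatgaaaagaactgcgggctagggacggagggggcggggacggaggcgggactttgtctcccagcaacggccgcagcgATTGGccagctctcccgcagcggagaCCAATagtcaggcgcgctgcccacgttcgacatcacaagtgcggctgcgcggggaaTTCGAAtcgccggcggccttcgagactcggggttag
Top2a, chr11:99024140-99024439, minus strand: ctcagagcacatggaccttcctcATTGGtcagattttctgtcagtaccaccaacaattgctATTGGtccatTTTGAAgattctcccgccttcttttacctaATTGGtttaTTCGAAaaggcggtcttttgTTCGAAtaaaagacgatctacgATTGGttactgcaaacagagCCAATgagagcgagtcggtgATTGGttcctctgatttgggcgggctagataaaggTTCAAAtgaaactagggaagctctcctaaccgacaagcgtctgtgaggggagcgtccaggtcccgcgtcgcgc
Cdk1, chr10:69352863-69353162, minus strand: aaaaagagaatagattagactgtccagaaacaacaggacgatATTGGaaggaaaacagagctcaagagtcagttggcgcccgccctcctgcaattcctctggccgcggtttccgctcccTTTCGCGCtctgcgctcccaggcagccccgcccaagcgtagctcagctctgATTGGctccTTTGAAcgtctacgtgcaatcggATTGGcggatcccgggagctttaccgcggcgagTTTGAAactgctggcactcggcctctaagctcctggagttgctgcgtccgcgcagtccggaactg
Mcm6, chr1:128359656-128359955, minus strand: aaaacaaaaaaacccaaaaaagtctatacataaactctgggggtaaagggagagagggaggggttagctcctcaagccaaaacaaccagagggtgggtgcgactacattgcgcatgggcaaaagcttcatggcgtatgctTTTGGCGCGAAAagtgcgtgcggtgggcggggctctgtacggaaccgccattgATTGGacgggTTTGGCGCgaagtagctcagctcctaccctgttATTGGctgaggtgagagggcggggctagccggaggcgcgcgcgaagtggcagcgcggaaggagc

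The window of Bub1, a kinase of the spindle checkpoint, held 1 CHR match just after the transcript start and 2 CCAAT matches upstream of it. That of Top2a, the topoisomerase that untangles DNA before anaphase, held 4 CHR and 6 CCAAT matches. Cdk1 had 2 CHR matches, 3 CCAAT matches and 1 E2F match, so both kinds of element stood in 1 window. In Mcm6, a helicase subunit, there were 3 E2F matches, of which 2 overlap, with 2 CCAAT matches and no CHR match. A CHR match was present in 17 of 21 windows of mitosis genes (81.0%) and in 3 of 11 windows of replication genes (27.3%), beside 13.5% of the 11001 windows of genes in the table. An E2F match was present in 4 of 11 replication genes (36.4%) and 2 of 21 mitosis genes (9.52%), beside 4.02% of the table's windows. CCAAT was present in 28 of the 32 windows, against 38.3% over the table. These are matches of letters, not bound sites.

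Levels between genes can be compared only per length, as CPM per kb of exon. On that scale Spc25, a subunit of the NDC80 kinetochore complex, stood far above the rest at 69.4 CPM per kb. Pcna followed at 11.6 and Mcm4, a helicase subunit, at 3.98, while Pole, the catalytic subunit of polymerase epsilon, was lowest at 0.160. Spc24, which pairs with Spc25 in the same complex, was at 0.853 CPM per kb, so the partners differed 81.4-fold. The Spc25 gene (chr2:69193895-69206194, minus strand, GRCm38) lies 4878 bases from G6pc2, a beta cell gene on the other strand at 1495 CPM per kb, and the part of that neighbour in the Spc25 reads was not tested. Mean levels were under 2 log2 CPM for 27 of the 40 genes, and 15 genes had at least 1 library with fewer than 10 reads. Aurkb, the kinase of the chromosomal passenger complex, had 0 reads in 1 library.

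Some libraries stood apart over most of the 40 genes, and several medians, calls and correlations that rest on them are followed by values without them. The mean over the 40 genes ran from 0.378 to 2.67 log2 CPM in HFD libraries (median 1.71, SD 0.587, n = 35) and from 1.11 to 2.82 in RC libraries (median 1.96, SD 0.355, n = 34). The lowest values were in BALB/cJ under HFD, at 0.378 and 0.565 in replicates 1 and 2 of day 5 and 0.986 and 0.583 in replicates 1 and 2 of day 13. Replicates 3 and 4 of the same groups were at 1.62 and 1.97 on day 5 and at 1.89 and 2.22 on day 13, and the BALB/cJ RC libraries at 1.42 to 2.19. The low libraries are those with the lower of the numbers in the sample titles, a number the labels do not explain, and the split was noticed in these values. Both low libraries lay below both others for 33 of the 40 genes on day 5, where 25.9% of all genes did, and for 33 on day 13, where 28.4% of all genes did. The libraries were singled out by the mean of these 40 genes, so a high count was built into that choice.

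**Figure D1:**
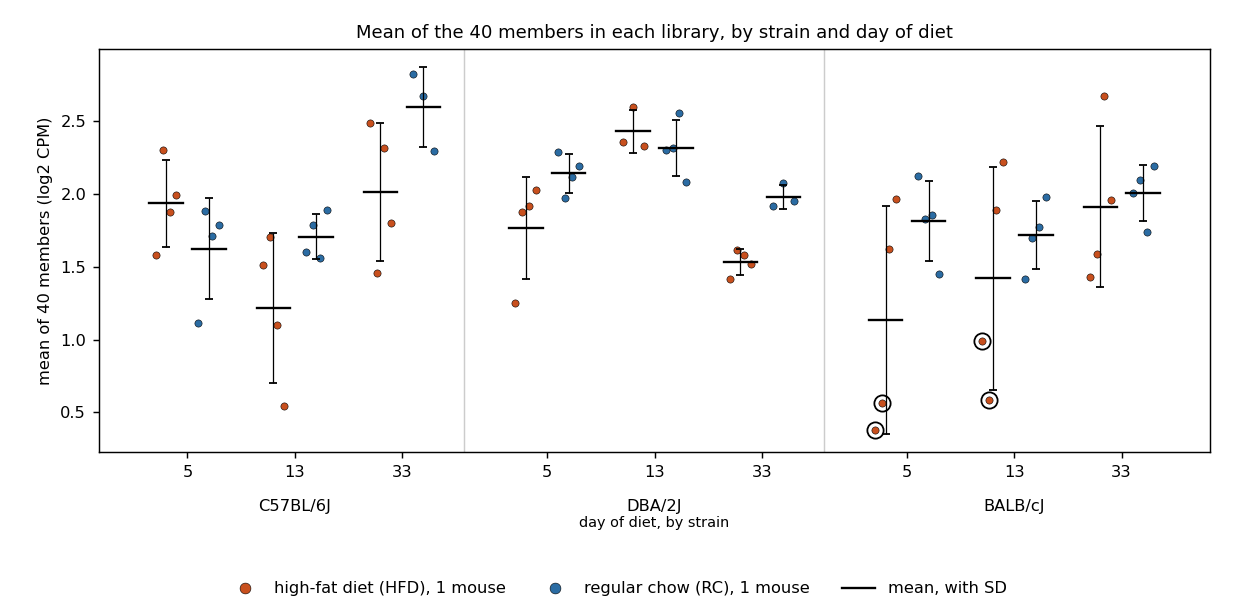
Mean log2 CPM over the 40 genes in each of the 69 libraries, by strain, diet and day, with 1 point per mouse. The 4 ringed BALB/cJ HFD libraries of lower title number lie between 0.378 and 0.986, below every BALB/cJ RC library.

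Other cell types differed between the same BALB/cJ libraries. The mean of 13 acinar (digestive enzyme) markers was 6.83 and 6.22 log2 CPM in the low libraries of day 5 against 10.9 and 10.1 in the others, and 5.94 and 7.03 against 8.20 and 7.54 on day 13. The mean of 14 stellate cell and fibroblast markers was 3.43 and 3.34 against 4.17 and 4.23 on day 5, and 3.62 and 3.93 against 4.17 and 4.10 on day 13. The BALB/cJ RC libraries ran from 5.67 to 8.42 on day 5 and 7.10 to 8.95 on day 13 for the acinar list, and from 3.80 to 4.19 and 3.50 to 4.59 for the stellate list. Against RC, the low libraries were thus low in the stellate list on day 5 and in the acinar list on day 13, where both lay below every RC library, and inside the RC range otherwise, while the other pair of day 5 was above RC in the acinar list. The mean of 6 immediate early genes was 4.03 and 4.41 in the low libraries of day 13 against 3.12 and 3.38 in the others and 3.37 to 4.08 under RC, and on day 5 it was 4.09 and 3.41 against 3.85 and 3.09, with 3.27 to 3.97 under RC. Beta cell marker means were 10.98 in both low libraries of day 5, below the 11.09 to 11.25 under RC. The part of these cells and genes in the 40 was not tested. Outside BALB/cJ, replicate 4 of C57BL/6J HFD day 13 was low at a mean of 0.546, and replicate 1 of C57BL/6J RC day 5 was the lowest RC library at 1.11.

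The first comparison asked whether the diet moved the genes when strains and days were averaged. Under HFD 11 of the 40 genes were lower and 0 were higher, beside 3.06% of all genes that were lower and 2.41% that were higher (limma, adjusted p under 0.05). All 40 estimates were below 0, with a median log2 difference of -0.26 against 0.00 over all genes. The called genes were 2 of the 13 replication genes (median -0.11 over the 13) and 9 of the 27 mitosis genes (median -0.34 over the 27). Without the 4 low BALB/cJ libraries only Rrm1 of the 11 was called, the median was -0.14, and 38 of 40 estimates were still below 0. When the other 4 libraries of those groups were left out instead, 28 genes were called lower, beside 6.33% of all genes, and the median was -0.43. The split was noticed in the values of these 40 genes, so the direction of both changes was built into that choice. Without replicate 4 of C57BL/6J HFD day 13 alone, 3 genes were called lower and the median was -0.23.

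**Figure D2:**
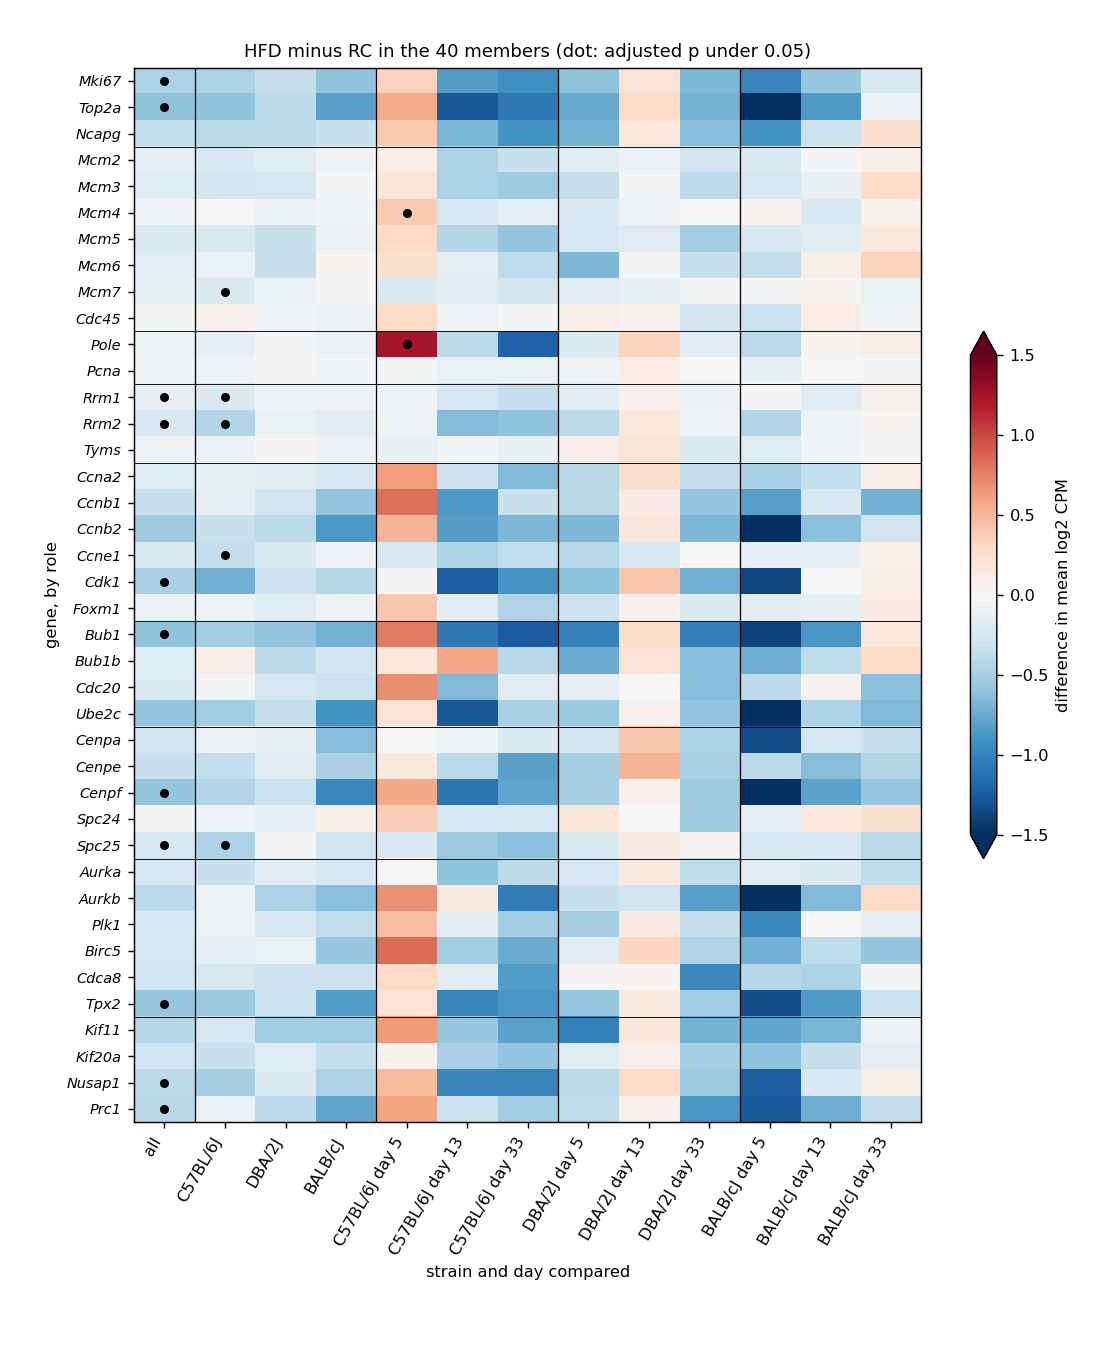
HFD minus RC log2 differences of the 40 genes, ordered by role, averaged over all strains and days, per strain, and per strain and day. Colour runs from -1.5 to 1.5 and dots mark an adjusted p under 0.05, of which the all-strain column holds 11, all lower.

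Among the chromosome structure genes, Mki67, the proliferation marker that coats mitotic chromosomes, had a lowest, median and highest level of 1.37, 3.50 and 5.00 log2 CPM under HFD and 2.66, 3.87 and 5.27 under RC. The ranges overlapped widely, and the HFD libraries reached further down. Its mean fell by 0.48 on the log2 scale (SE 0.15, limma adjusted p = 0.0414), which is 28.3% lower. Top2a was at -0.47, 3.12 and 4.73 under HFD and 1.75, 3.48 and 5.12 under RC. It was lower by 34.1% (log2 difference -0.60, SE 0.19, limma adjusted p = 0.0439). The spread of Top2a between all libraries of a diet was 1.20 (SD) under HFD and 0.61 under RC. The HFD value includes the low libraries and was not calculated without them. Top2a had 16 to 61 reads in the 4 low BALB/cJ libraries and 19 in replicate 4 of C57BL/6J HFD day 13, beside a median of 227 over all libraries. Ncapg, a condensin subunit, differed by -0.37 (limma adjusted p = 0.0642).

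None of the 7 helicase genes and neither of the 2 polymerase and clamp genes passed the test, with medians of -0.14 and -0.06. Mcm7 differed by -0.11 (limma adjusted p = 0.0868), Mcm2 by -0.15 (limma adjusted p = 0.114) and Mcm5 by -0.22 (limma adjusted p = 0.121). Mcm5 was at 1.22, 2.24 and 3.86 log2 CPM under HFD and 1.68, 2.54 and 3.23 under RC, so the HFD mice spanned the RC range on both sides. Pcna was at 4.47, 4.81 and 5.11 log2 CPM under HFD and 4.61, 4.80 and 5.03 under RC, a difference of -0.04. The levels of Pcna thus lay within nearly the same range on both diets, with a spread inside groups of 0.12 (SD). Of the 3 nucleotide synthesis genes, Rrm1 and Rrm2, the large and small subunits of ribonucleotide reductase, fell. Rrm1 was at 4.38, 4.82 and 5.30 under HFD and 4.61, 4.93 and 5.15 under RC, a small shift of -0.11 (SE 0.03, limma adjusted p = 0.00817) in a gene that varied little between mice (SD 0.11 within groups). Rrm2 was at 1.23, 2.22 and 3.22 under HFD and 1.80, 2.37 and 2.80 under RC. It shifted by -0.23 (SE 0.07), at the threshold with a limma adjusted p of 0.05 after rounding.

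Of the cyclins, Cdk1 and the transcription factor Foxm1, only Cdk1 was called. Cdk1 was at -1.17, 1.14 and 2.72 log2 CPM under HFD and 0.45, 1.57 and 2.76 under RC, and its mean fell by 0.48 (SE 0.15, limma adjusted p = 0.0484). The highest mice were close on the diets and the lowest were far apart. Its partners Ccnb2 and Ccnb1 differed by -0.53 and -0.34 (limma adjusted p = 0.0679 and 0.257), with Ccnb1 at -2.03, 0.29 and 1.80 under HFD and -0.85, 0.53 and 1.77 under RC. Ccne1, the cyclin of S-phase entry, differed by -0.21 (limma adjusted p = 0.0707). Foxm1, which drives mitosis genes, differed by -0.09 (limma adjusted p = 0.517), with levels of 0.76, 1.77 and 2.91 under HFD and 0.62, 1.96 and 2.97 under RC.

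Bub1 was at -2.98, -0.13 and 1.44 log2 CPM under HFD and -1.44, 0.25 and 1.77 under RC, a fall of 34.2% (log2 difference -0.60, SE 0.16, limma adjusted p = 0.0146). It was the only called gene of the 4 in the checkpoint and anaphase-promoting complex group, in which Ube2c, the complex's ubiquitin-conjugating enzyme, differed by -0.59 (limma adjusted p = 0.0618). At the kinetochore, Cenpf fell by 0.58 (SE 0.18, limma adjusted p = 0.0456) and Spc25 by 0.26 (SE 0.08, limma adjusted p = 0.046), while Spc24 differed by -0.03. Tpx2, which activates Aurora A on the spindle, was at -1.46, 1.11 and 2.68 under HFD and 0.25, 1.62 and 3.07 under RC. It was lower by 32.6% (log2 difference -0.57, SE 0.16, limma adjusted p = 0.02). Of the spindle genes, the microtubule bundlers Nusap1 and Prc1 fell by 0.39 (SE 0.12, limma adjusted p = 0.0484) and 0.42 (SE 0.13, limma adjusted p = 0.0427), and the motors Kif11 and Kif20a differed by -0.43 and -0.30 (limma adjusted p = 0.0844 and 0.0699).

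Bub1, Rrm1 and Tpx2 kept their calls when any 1 of the 69 libraries was left out. Each of the other 8 lost its call in 30 to 51 of the 69 removals, with adjusted p-values of at most 0.0807.

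**Figure D3:**
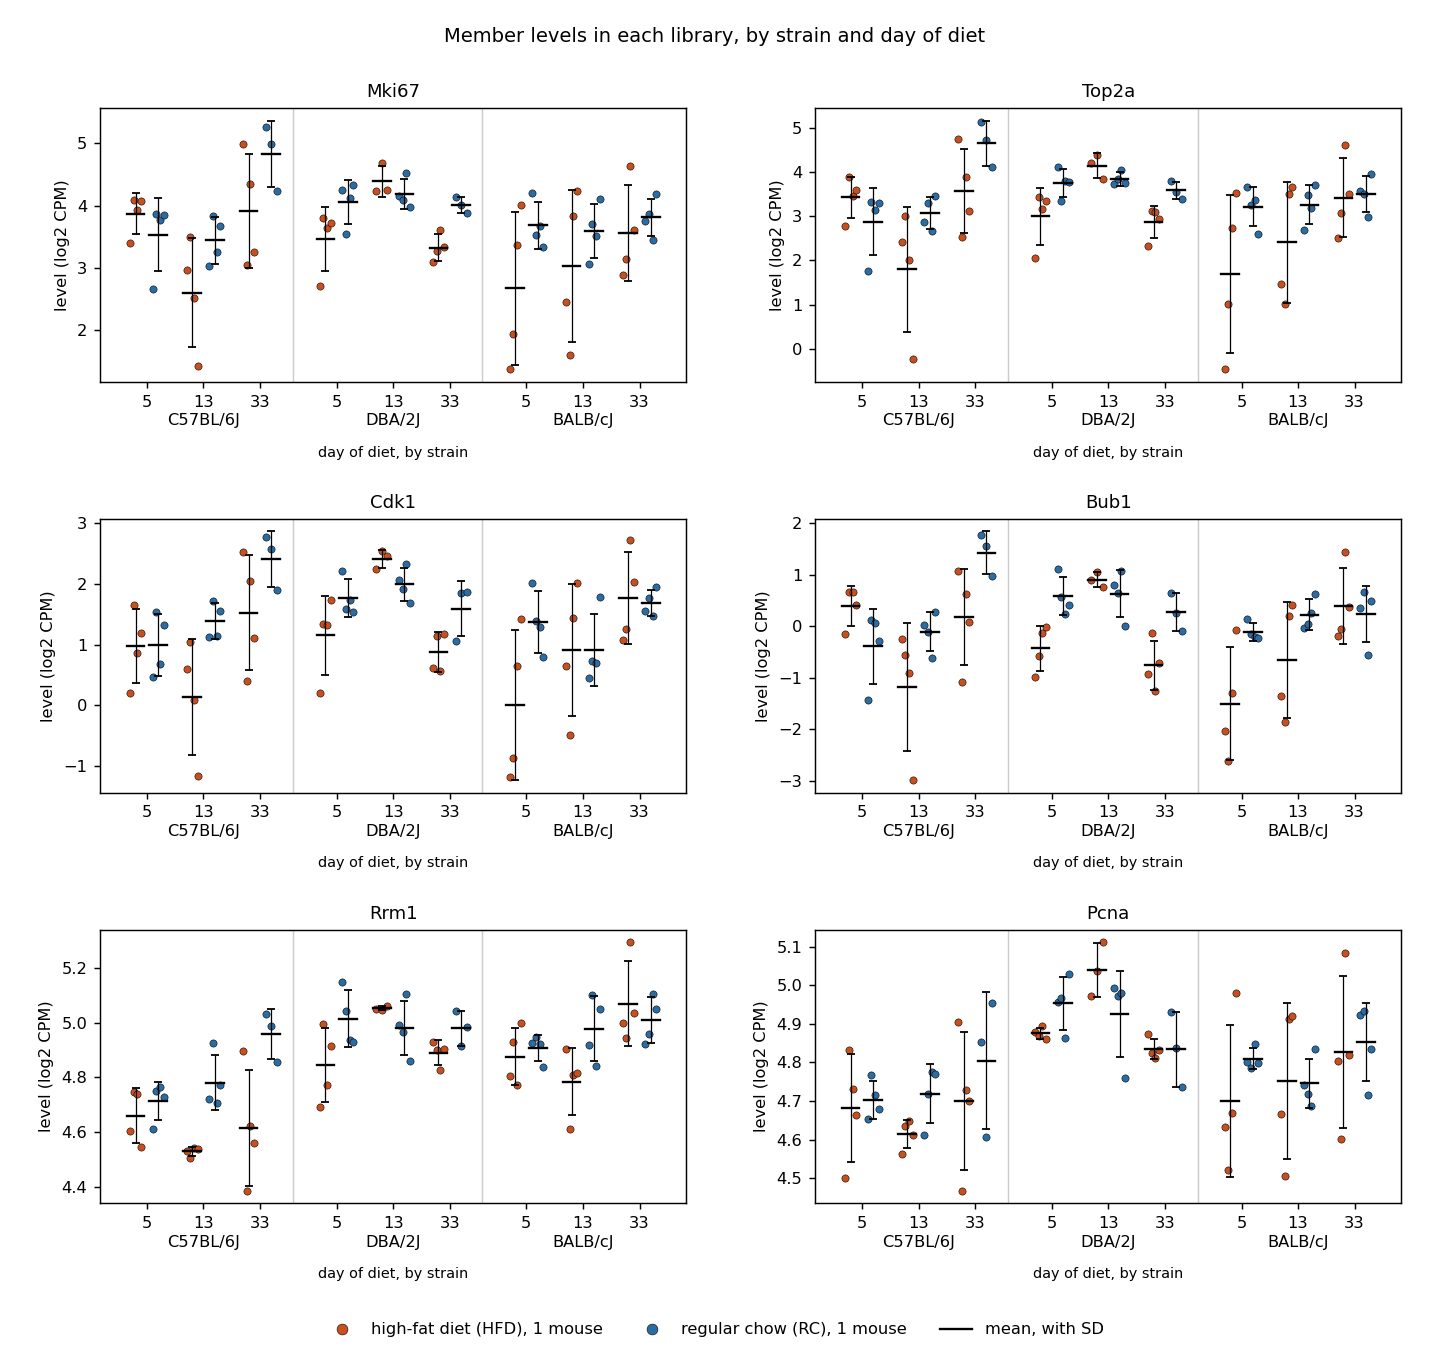
Log2 CPM of Mki67, Top2a, Cdk1, Bub1, Rrm1 and Pcna in the 18 groups, 1 point per mouse, with the mean and SD of each group. HFD and RC points overlap in most pairs of groups, and Rrm1 and Pcna vary over a far narrower range (4.38 to 5.30 and 4.47 to 5.11) than the mitosis genes.

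Within strains, the calls came from C57BL/6J, where 5 of the 40 genes were lower and 0 higher, beside 8.05% of all genes that were lower and 6.5% that were higher. The 5 were Rrm1 (-0.22, limma adjusted p = 0.00135), Rrm2 (-0.44, limma adjusted p = 0.0176), Spc25 (-0.47, limma adjusted p = 0.0192), Mcm7 (-0.22, limma adjusted p = 0.0286) and Ccne1 (-0.36, limma adjusted p = 0.0429). Of these, 4 serve DNA replication, and G6pc2, the abundant neighbour of Spc25, differed by -0.33 (limma adjusted p = 0.0565). The share of the 40 genes called was close to that of all genes, and the median over the 40 was -0.24. Their number was 2 without replicate 2 of HFD day 33, and 3 without replicate 1 of HFD day 5, replicate 3 or 4 of HFD day 13, or replicate 1 of RC day 33.

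In DBA/2J limma called 0 of the 40 genes, and 0% of all genes were lower. At an unadjusted p under 0.05, 3 of the 40 were lower there, beside 1.71% of all genes, and the median was -0.23. In BALB/cJ limma also called 0 of the 40, beside 0.0411% of all genes that were lower, with a median of -0.31. At an unadjusted p under 0.05, 17 of the 40 were lower, beside 5.16% of all genes. That BALB/cJ median was 0.06 without the 4 low libraries, with 11 of 40 estimates below 0, and -0.79 without the other 4 libraries of their groups, with 25 genes called lower, beside 3.47% of all genes. Here too the direction of both changes was built in, as the split was noticed in these genes. Leaving out single libraries gave BALB/cJ 2 calls without replicate 4 of HFD day 5, and 1 call without replicate 4 of HFD day 13 or replicate 3 of HFD day 33. The diet difference itself was compared between the strains, and limma called 0 of the 40 genes in each of the 3 pairs, with 2, 3 and 1 at an unadjusted p under 0.05 beside 18.1%, 17.2% and 3.23% of all genes (DBA/2J minus C57BL/6J, BALB/cJ minus C57BL/6J, BALB/cJ minus DBA/2J). These counts were near or below the background. A difference in diet effect between strains was therefore not detectable in these libraries.

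The sign of the median differed between days in C57BL/6J and DBA/2J, although the difference between days was not tested. In C57BL/6J the median over the 40 genes was 0.30 on day 5, with 30 estimates above 0, then -0.47 on day 13 and -0.56 on day 33, with 38 and 40 below 0. The title numbers of the diets do not overlap on day 5 in C57BL/6J, so diet and title number cannot be told apart there. Without replicate 1 of RC day 5 the day 5 median was 0.14, with 25 above 0, and without replicate 4 of HFD day 13 the day 13 median was -0.27, with 34 below 0. DBA/2J had medians of -0.36, 0.12 and -0.49, and BALB/cJ of -0.47, -0.24 and -0.02. Without the low libraries the BALB/cJ medians were -0.03 on day 5 and 0.32 on day 13, with 24 and 6 of 40 estimates below 0, so the day 13 median changed sign. No gene of the 40 had its HFD mean below the RC mean in all 9 pairs of strain and day, and 25 had it so in at least 7. The share of all genes with such a count was not calculated, nor was the count without the low libraries. All genes of a pair were measured in the same few mice, so they are not independent of each other.

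On day 5 in C57BL/6J, 2 of the 40 genes were higher under HFD, beside 0.712% of all genes. Mcm4 was at 3.84, 4.06, 3.87 and 3.83 log2 CPM under HFD and 3.34, 3.75, 3.52 and 3.43 under RC. The groups did not overlap, and the mean rose by 0.39 (limma adjusted p = 0.034). Pole was at 0.81, 1.80, 1.17 and 1.66 under HFD and -0.42, 0.34, 0.41 and 0.19 under RC, a rise of 1.23 (limma adjusted p = 0.0315), again without overlap. Without replicate 1 of C57BL/6J RC day 5, the lowest RC library over the 40 genes, the limma adjusted p was 0.167 for Mcm4 and 0.16 for Pole. On day 33 the order of Pole was the reverse, at 0.55, -0.22, 0.38 and 0.51 under HFD against 1.57, 2.13 and 0.85 under RC, a difference of -1.21 that did not pass the test (limma adjusted p = 0.137).

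All HFD mice lay above all RC mice for 3 of the 40 genes on day 5 in C57BL/6J (Mcm4, Pole and Prc1), as for 4.87% of all genes. On day 13 all HFD mice lay below all RC mice for 3 genes (Rrm1, Cdk1 and Aurka), as for 5.35% of all genes, and on day 33 for 6 (Mcm3, Mcm6, Pole, Rrm2, Aurkb and Cdca8), as for 5.88%. Rrm1 on day 13 was at 4.53, 4.51, 4.54 and 4.54 under HFD and 4.72, 4.93, 4.71 and 4.77 under RC. The HFD mice were nearly equal, and the difference of -0.25 missed the threshold (limma adjusted p = 0.0807).

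DBA/2J showed the most genes without overlap. On day 33 all 4 HFD mice lay below all 3 RC mice for 16 of the 40 genes, all of them mitosis genes, beside 5.48% of all genes. Mki67 was at 3.10, 3.27, 3.61 and 3.33 under HFD and 4.14, 4.01 and 3.89 under RC, and Bub1 at -0.92, -0.12, -1.25 and -0.70 against 0.66, 0.25 and -0.08. Top2a was at 2.32, 3.12, 3.10 and 2.93 against 3.79, 3.55 and 3.40. None of these passed the test across all genes, with differences of -0.68, -1.03 and -0.71 (limma adjusted p = 0.709, 0.583 and 0.761 for Mki67, Bub1 and Top2a). On day 5 there were 4 such genes (Ncapg, Mcm6, Bub1 and Kif11), as for 5.86% of all genes, with Bub1 at -0.98, -0.57, -0.13 and -0.02 against 1.12, 0.57, 0.25 and 0.42. On day 13 the order was the other way, and Ccna2, the cyclin of S phase and mitotic entry, lay above in all HFD mice, at 2.81, 2.89 and 2.77 against 2.52, 2.59, 2.59 and 2.52. It was the only such gene of the 40, beside 2.05% of all genes.

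In BALB/cJ the single gene without overlap was Nusap1 on day 5, at -0.64, -0.87, 0.84 and 0.86 under HFD and 1.76, 1.23, 1.28 and 0.88 under RC, beside 2.21% of all genes. The HFD mice fell into a low and a high pair, and the high pair lay just below the lowest RC mouse. Mki67 in BALB/cJ HFD was at 1.37, 1.95, 3.37 and 4.02 on day 5 and 2.46, 1.61, 3.83 and 4.23 on day 13, against 4.20, 3.52, 3.67 and 3.34 and 3.07, 3.71, 3.51 and 4.11 under RC. Replicates 3 and 4 thus lay among or just above the RC mice.

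The strains were next compared under RC, averaged over days. DBA/2J differed from C57BL/6J in 10 of the 40 genes (8 higher, 2 lower), beside 54.5% of all genes. BALB/cJ differed from C57BL/6J in 10 (5 higher, 5 lower), beside 56.3%, and from DBA/2J in 8 (1 higher, 7 lower), beside 35% of all genes. None of these counts is above what the table holds at large. Their median difference was 0.18, -0.05 and -0.32 in the 3 comparisons, which share libraries.

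Mcm6 carried the widest gap between strains. Over both diets it was at 3.62, 4.13 and 4.64 log2 CPM (lowest, median, highest) in 23 C57BL/6J libraries, 1.63, 2.65 and 3.32 in 22 DBA/2J libraries and 1.62, 2.24 and 3.53 in 24 BALB/cJ libraries. Every C57BL/6J library lay above every other library. Under RC, Mcm6 was 2.68-fold lower in DBA/2J (log2 difference -1.42, SE 0.13, limma adjusted p = 3.3e-14) and 3.59-fold lower in BALB/cJ (-1.85, limma adjusted p = 3.27e-19). Mcm4 and Mcm5 went the other way: Mcm5 was higher than in C57BL/6J by 0.55 in DBA/2J (limma adjusted p = 0.00193) and 0.38 in BALB/cJ (limma adjusted p = 0.0285), and Mcm4 by 0.18 and 0.23 (limma adjusted p = 0.013 and 0.00149). Mcm2 was higher in BALB/cJ by 0.37 (limma adjusted p = 0.00165), at 3.94, 4.36 and 4.66 against 3.67, 3.98 and 4.40 in C57BL/6J. In the cell these proteins form 1 ring.

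**Figure D4:**
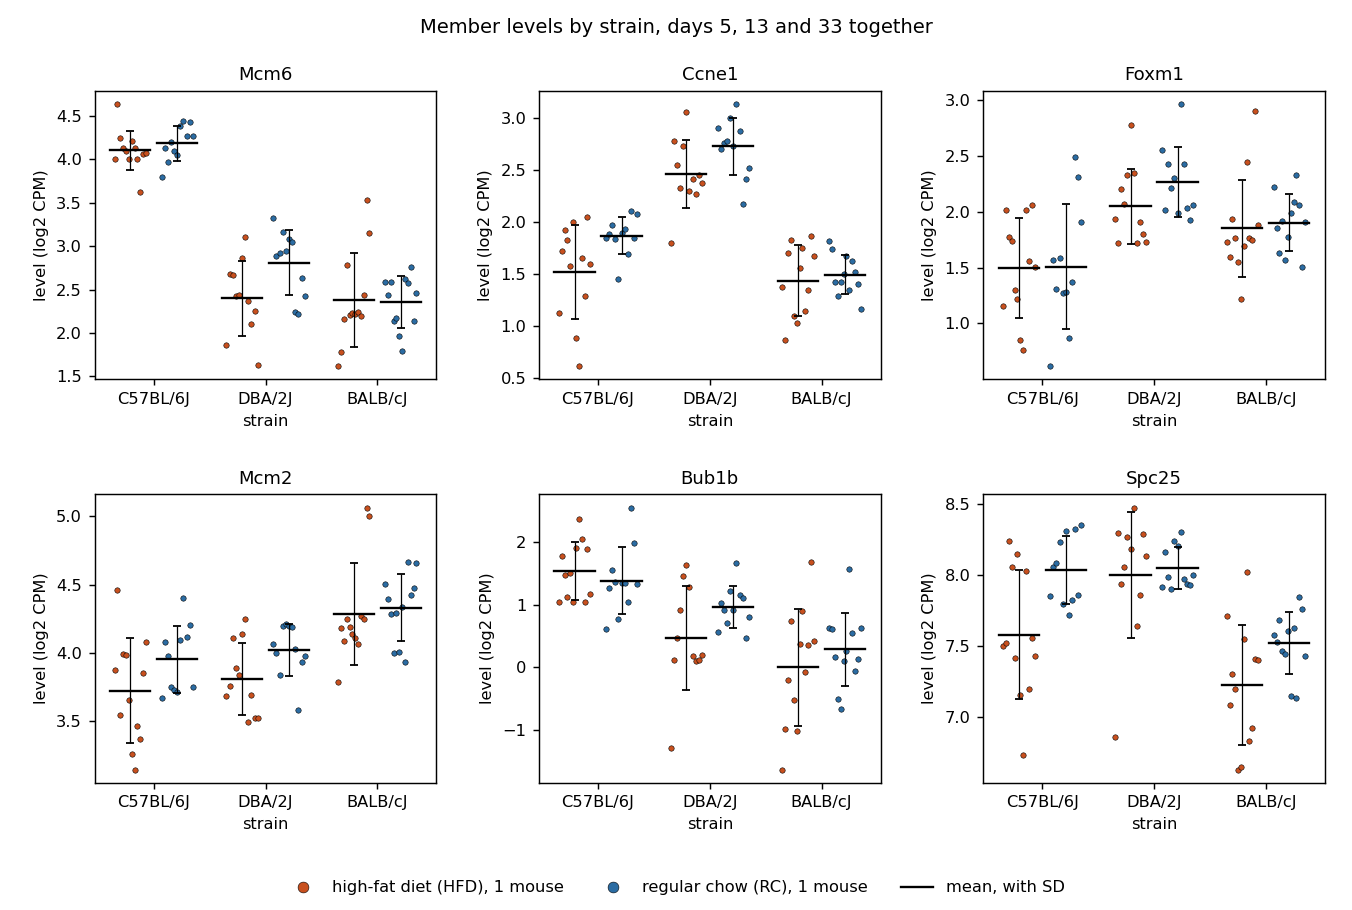
Log2 CPM of Mcm6, Ccne1, Foxm1, Mcm2, Bub1b and Spc25 by strain and diet, 1 point per mouse, with mean and SD. All C57BL/6J points of Mcm6 (3.62 to 4.64) lie above all points of the other strains, while the other 5 genes overlap between at least a pair of strains.

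Ccne1 under RC was at 1.45, 1.89 and 2.11 log2 CPM in C57BL/6J, 2.17, 2.76 and 3.14 in DBA/2J and 1.17, 1.46 and 1.82 in BALB/cJ. All DBA/2J mice were above all others, and the other strains overlapped. Its level was 1.76-fold higher in DBA/2J than in C57BL/6J (limma adjusted p = 3.26e-07) and 2.30-fold lower in BALB/cJ than in DBA/2J (limma adjusted p = 4.76e-12). Foxm1 was at 0.62, 1.37 and 2.49 in C57BL/6J, 1.92, 2.22 and 2.97 in DBA/2J and 1.50, 1.92 and 2.33 in BALB/cJ. It was 1.60-fold higher in DBA/2J than in C57BL/6J (limma adjusted p = 3.34e-05), and the C57BL/6J mice spanned the widest range.

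Among the mitosis genes, Bub1b, the checkpoint protein BUBR1, was lowest in BALB/cJ, at -0.66, 0.21 and 1.57 log2 CPM against 0.62, 1.34 and 2.54 in C57BL/6J and 0.47, 0.91 and 1.66 in DBA/2J. It was 2.20-fold lower in BALB/cJ than in C57BL/6J (log2 difference -1.14, limma adjusted p = 5.44e-05) and lower by 0.66 on the log2 scale than in DBA/2J (difference -0.66, limma adjusted p = 0.0257). Spc25 was at 7.13, 7.55 and 7.85 in BALB/cJ against 7.72, 8.05 and 8.35 in C57BL/6J and 7.90, 7.98 and 8.30 in DBA/2J. The difference was -0.53 from C57BL/6J and -0.52 from DBA/2J (limma adjusted p = 0.00124 and 0.00238), and no DBA/2J mouse reached down to the BALB/cJ range. Ccna2 was lower in BALB/cJ than in DBA/2J (-0.71, limma adjusted p = 0.00168), and Prc1 was lower in BALB/cJ than in C57BL/6J (-0.70, limma adjusted p = 0.00685).

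The remaining calls were Pcna 0.16, Rrm1 0.17, Mcm7 -0.16, Cdc20 0.54 and Spc24 0.50 in DBA/2J minus C57BL/6J, and Rrm1 0.15, Foxm1 0.33 and Ccne1 -0.39 in BALB/cJ minus C57BL/6J. Against DBA/2J, BALB/cJ had Mcm2 at 0.33, Mcm6 at -0.43, Foxm1 at -0.34 and Spc24 at -0.46. The call of Mcm7 was lost in 35 of the 69 removals of a library (limma adjusted p = 0.0486 with all libraries).

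Time on the study was compared as day 33 minus day 5. The title numbers of these days do not overlap in any strain and diet, so time and title number cannot be told apart. Under RC, averaged over strains, limma called 0 of the 40 genes, beside 0.0616% of all genes that were higher, with 12 of the 40 higher at an unadjusted p under 0.05, as for 4.72% of all genes. Under HFD it called 0, beside 2.27% of all genes, with 3 of the 40 higher at an unadjusted p under 0.05, as for 11.2% of all genes. In C57BL/6J under RC it called 0, beside 0.116% of all genes, while at an unadjusted p under 0.05, 26 of the 40 were higher, as for 7.31% of all genes, and the median was 1.25. The lowest limma adjusted p there was 0.0732, and Bub1 differed by 1.82 (limma adjusted p = 0.101). Without replicate 1 of RC day 5, the lowest RC library, the C57BL/6J median was 1.04 with 24 higher at an unadjusted p under 0.05, and over the strains 5 rather than 12 were higher.

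In BALB/cJ under HFD, 3 of the 40 genes rose from day 5 to day 33, beside 0.274% of all genes. Bub1 was at -2.03, -2.61, -1.29 and -0.07 log2 CPM on day 5 and -0.19, -0.06, 1.44 and 0.38 on day 33, a difference of 1.89 (SE 0.46, limma adjusted p = 0.0368). Cdk1 was at -1.17, -0.87, 0.64 and 1.42 on day 5 and 1.07, 1.26, 2.72 and 2.02 on day 33 (1.76, SE 0.45, limma adjusted p = 0.0463). Aurkb was at -3.54 (0 reads), -2.61, -0.28 and -0.95 on day 5 and -1.05, -0.18, 0.88 and 0.13 on day 33 (1.79, SE 0.46, limma adjusted p = 0.0463). The low day 5 mice are the 2 with lower title numbers, and 0 of the 3 genes was called without replicate 1 or 2 of day 5, or without replicate 4 of day 33. Over the 69 removals of a library, Aurkb lost its call in 20, Cdk1 in 18 and Bub1 in 5. Their limma adjusted p-values rose to at most 0.326, 0.254 and 0.206. The median over the 40 genes was 0.73, and 0.12 without the low libraries. Under RC, BALB/cJ Bub1 was at 0.14, -0.15, -0.20 and -0.22 on day 5 and 0.36, 0.67, -0.55 and 0.49 on day 33.

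How far the genes moved together from mouse to mouse was described by the correlation with Mki67 over the 69 libraries after each group's mean was taken off. The libraries share depth and normalization, and no p is given. Top2a was most like Mki67 (Pearson r = 0.96), followed by Cenpf at 0.95, Cenpe at 0.93 and Tpx2 and Cdk1 at 0.92. Of the other 39 genes, 33 had r above 0.5, which 2.35% of all genes had. Without the 4 low BALB/cJ libraries (n = 65) 30 of the 39 had r above 0.5, beside 1.25% of all genes, with Top2a at 0.95, Cenpf at 0.92, Cenpe at 0.89 and Tpx2 and Cdk1 at 0.88. Within strains the likeness was lowest in DBA/2J for several genes: Cdk1 had r of 0.93 in C57BL/6J, 0.57 in DBA/2J and 0.97 in BALB/cJ, Cenpf 0.95, 0.75 and 0.98, and Cdca8, of the chromosomal passenger complex, 0.80, 0.27 and 0.95. The 6 libraries described above as low are of BALB/cJ and C57BL/6J, and r within strains was not calculated without them. Over all strains without those 6 (n = 63), r was 0.86 for Cdk1, 0.90 for Cenpf and 0.61 for Cdca8. With them it was 0.92, 0.95 and 0.81. The helicase subunits Mcm2 and Mcm4 were least tied to Mki67 over the 69 libraries, at 0.34 and 0.007. Among genes outside the 40 and outside the lists of other cell cycle genes, Pimreg (0.82), Dtl (0.81) and Slfn9 (0.79) were most like Mki67, then Diaph3, Kifc1, Fignl1, Stmn1, Gabarap, Neil3 and Fam111a (0.78 to 0.72), and of the listed cell cycle genes Hmmr (0.95) and Pbk (0.91) were. Spread within groups was widest for Ube2c and Top2a (SD 0.85 and 0.81) and narrow for Rrm1 and Pcna.

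**Figure D5:**
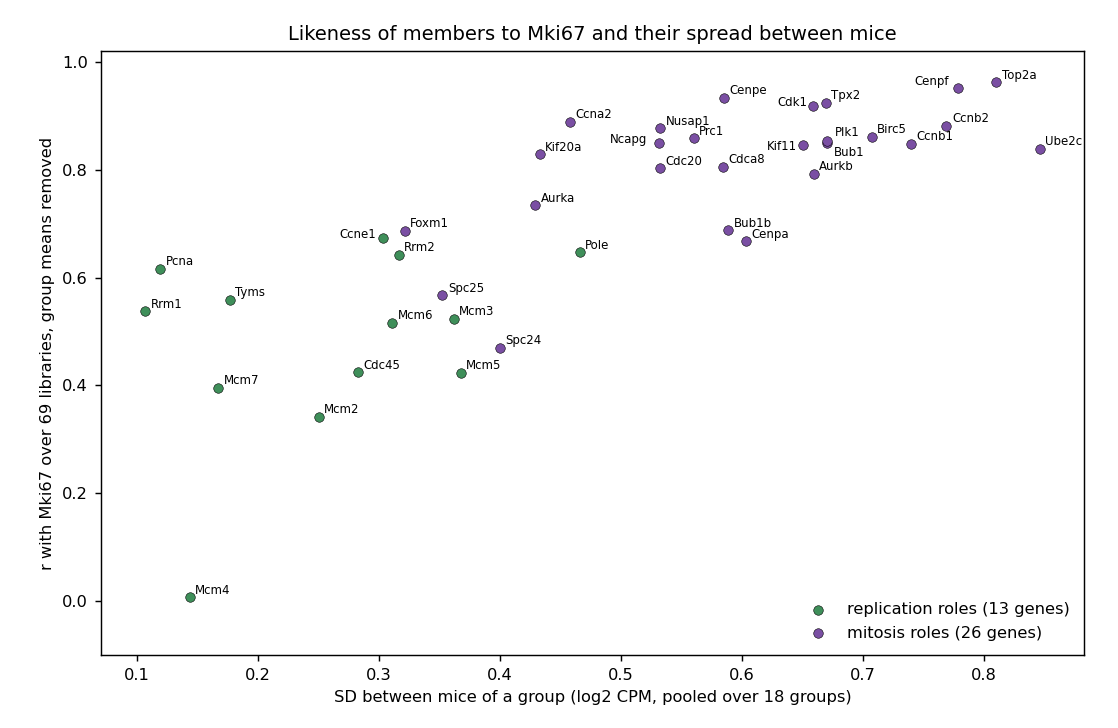
Pearson r with Mki67 over 69 libraries after removing group means (vertical) against the spread within groups (SD of log2 CPM, horizontal), 1 point per gene, 13 replication genes and 26 mitosis genes. Mitosis genes gather at high spread and high r, up to 0.96 for Top2a, and Mcm4 lies at 0.007.

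Other genes of the pathway were read from lists for the all-strain diet comparison. Of 37 further replication genes limma called 0 (median -0.03), with Cdc6, a licensing factor, at -0.45 (limma adjusted p = 0.0593) and Brca1, a repair factor, at -0.28 (limma adjusted p = 0.0503). Timeless and Clspn, which guard the replication fork, were at -0.19 and -0.41 (limma adjusted p = 0.0621 and 0.122). Of 54 further mitosis genes 6 were lower and 0 higher (median -0.21): Cenpi (-0.54, limma adjusted p = 0.0116), Hmmr (-0.66, limma adjusted p = 0.032), Ckap2l (-0.62), Kif2c (-0.55), Ncapg2 (-0.18) and Cdca2 (-0.38). Of 22 genes of the G1 cyclins, their kinases, RB and E2F limma called 0, and the lowest adjusted p was 0.089 (E2f4, 0.09). Of 13 genes on a list of division inhibitors and their regulators, which holds Ezh2 and Bmi1, Trp53 was higher (0.15, limma adjusted p = 0.00646) and Cdkn2b lower (-0.22, limma adjusted p = 0.0414). Of 18 genes of growth signalling to islets, only Prlr, the prolactin receptor, was called, and it was lower (-0.34, limma adjusted p = 0.000823). For these lists the shares over all genes are the 3.06% lower and 2.41% higher given above. In C57BL/6J, where 8.05% of all genes were lower, 5 of the 13 genes on the inhibitor list were lower, namely Ccng1 (-0.25), Cdkn2c (-0.34), Cdkn2b (-0.46), Btg2 (-0.23) and Cdkn1a (-0.46), and Trp53 was higher (0.23).

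Between strains under RC, 1 further mitosis gene stood far from the rest. Pttg1, securin, which holds back the protease of anaphase, differed by -2.63 in DBA/2J and -3.29 in BALB/cJ from C57BL/6J (limma adjusted p = 5.94e-21 and 5.55e-26). Of the 54 further mitosis genes, 2 were higher and 10 lower in DBA/2J, and 3 higher and 14 lower in BALB/cJ. Over all genes 26.9% were higher and 27.6% lower in DBA/2J, and 27.7% higher and 28.6% lower in BALB/cJ, so these counts are near or below the background. Of the 37 further replication genes, 12 were higher and 1 lower in DBA/2J, among them Gins3, a helicase partner (1.18, limma adjusted p = 1.55e-15).

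Markers of other cells moved with the diet in part. Of 14 stellate cell and fibroblast markers, 7 were lower under HFD and 0 higher (median -0.39), among them the collagen gene Col3a1 (-0.57, limma adjusted p = 0.00723) and Fn1, fibronectin (-0.87, limma adjusted p = 0.014). Their summed level was 174 to 704 CPM under HFD and 274.3 to 806 under RC. Of 12 macrophage markers only Lyz2 was called, lower by 0.56 on the log2 scale (difference -0.56, limma adjusted p = 0.0338), with summed levels of 77.2 to 163 CPM under HFD and 87.8 to 327 under RC. Of 12 endothelial markers 2 were lower, and of 13 acinar markers limma called 0, with summed levels of 305 to 46847 CPM under HFD and 412 to 11928 under RC. Of 10 beta cell markers 1 was lower, Ucn3 (-0.14, limma adjusted p = 0.0159), and of 8 alpha cell markers limma called 0. Of the macrophage, endothelial, stellate and acinar lists only the acinar gene Amy2a5 was at the floor, in 5 libraries. With the mean of the stellate markers as a covariate, or those of the macrophage and endothelial markers, Rrm1 was the only gene of the 40 still called in the all-strain comparison. The estimates of the other called genes were smaller but kept their sign: Bub1 was at -0.53 with the stellate covariate and -0.52 with the other covariates against -0.60 without, Top2a at -0.48 with either against -0.60, and Spc25 at -0.23 with either against -0.26. The part of these cells in the result was not otherwise tested.

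A few genes share bases with a gene on the other strand, and whether the counting used strand is not given in the sources used here. These include Kif20a with Cdc23 (1271 shared bases), Ncapg with Lcorl (944), Prc1 with Rccd1 (911), Ccna2 with Exosc9 (510) and Mcm7 with Ap4m1 (321), whose reads could not be told apart if strand was not used.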

How the data were processed

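Islet RNA (RQN 8.2 to 9.3, 250 ng, stranded TruSeq mRNA libraries, single-end reads) was sequenced, per the labels' protocols. Per the submitters' processing notes, the build was GRCm38 and the tools included HTSeq 0.9.1, STAR 2.5.3a and edgeR, the last with no version. The authors deposited log2 CPM values for 14604 genes in 69 libraries, and 3 of the 72 samples were not analysed here. The series text repeats day 13, and the labels' days 5, 13 and 33 were used. C56BL/6J in the labels was taken to mean C57BL/6J. Each value is a whole number of reads within 0.05 reads above a floor of -3.54 log2 CPM, in 100% of values, so depth was recovered.

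With limma 3.58.1, a model with 1 mean for each group was fitted over the 69 libraries (lmFit, eBayes with trend, R 4.3.3), with Benjamini-Hochberg adjustment over 14604 genes within each comparison, two-sided, at 0.05. Scripts were tested on simulated data. Alternatives were voom on the recovered reads, other scales, filters, covariates and left-out libraries. The members, lists and tests were chosen with earlier results of these data known. Levels are given for 10 named genes (Mki67, Top2a, Bub1, Tpx2, Rrm2, Mcm5, Pcna, Ccnb1, Cdk1, Foxm1) and for the 3 genes of lowest p in a comparison, and other genes were named after their values were seen. Annotation was GENCODE mouse 21 (14589 gene IDs matched), and promoters came from RefSeq. The sample titles carry numbers shared between groups. Over 21 pairs of libraries with the same number, deviations from group means correlated by -0.29 to 0.35, with 9 pairs above 0.1, so the numbers were not taken as pairing the mice.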

Additional observations from a re-analysis of the deposited data

Results flagged for a closer look

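For 10 of the genes, each of the 15 groups of 4 mice was searched for a mouse far from its group by Dixon's ratio, and 9 of 150 tests met the 95% limit, where chance gives about 1 in 20. Replicate 1 of C57BL/6J RC day 5 was low for Mki67 (2.66 log2 CPM, nearest mouse 3.77) and Top2a (1.75, nearest 3.14). Replicate 3 of BALB/cJ HFD day 33 was high for Tpx2 (2.43, nearest 1.11) and Foxm1 (2.91, nearest 1.88), and it was the highest of its group for 39 of the 40 genes. Single genes stood apart in 5 further libraries: Mki67 in replicate 1 of DBA/2J HFD day 5 (2.71, nearest 3.64), Rrm2 in replicate 2 of C57BL/6J HFD day 33 (1.46, nearest 2.14), Mcm5 in replicate 4 of DBA/2J HFD day 33 (1.42, nearest 2.14), Pcna in replicate 4 of DBA/2J RC day 13 (4.76, nearest 4.97) and Ccnb1 in replicate 1 of BALB/cJ RC day 13 (-0.85, nearest 0.38). The cause was not tested for any of them.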

How the results depend on the processing

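Counts of the 40 genes called moved with the processing, while no named gene changed direction where it was called; the cause was not tested except where fewer genes or mice were fitted. The all-strain HFD count of 11 was 17 with voom on the recovered reads, 7 on log2(CPM + 1), 23 with array weights, 5 of the 13 genes left by a mean filter above 2 log2 CPM, 1 with macrophage and endothelial covariates, 1 with a stellate covariate, 0 without day 5, 1 without day 13, 1 without day 33, 1 without the BALB/cJ HFD libraries of lower title number and 28 without those of higher title number (both chosen after seeing the data). It ran from 3 (without replicate 1 of C57BL/6J HFD day 5) to 17 (without replicate 2 of C57BL/6J HFD day 13) over the 69 removals of a library, and moved by over 1.5 times in 46 of them. With the title number as a replicate block, which may not pair the mice, it was 8. The C57BL/6J count of 5 was 17 with array weights, 1 with the macrophage and endothelial covariates, 1 with the stellate covariate, 0 with title number as a covariate, 1 without day 13 and 1 without day 33, and 2 to 7 over removals. The DBA/2J count of 0 was 1 with array weights. The BALB/cJ count of 0 was 11 with title number as a covariate, 25 without the libraries of higher title number, and 0 to 2 over removals. The 2 calls over the 9 strain and day pairs, both higher, became 39 with array weights, 1 with the filter, 1 with either cell covariate, 3 (all lower) with title number as a covariate, 0 with the replicate block, 28 without the libraries of higher title number, and 0 to 13 over removals. The 0 differences in diet effect between strains became 5 with array weights and 8 without the libraries of higher title number. DBA/2J minus C57BL/6J had 10 calls, and 6 with the filter, 5 with the macrophage and endothelial covariates, 5 with title number as a covariate and 1 with the replicate block. BALB/cJ minus C57BL/6J had 10, and 6, 3, 5 and 4 in that order, each 8 to 10 over removals. BALB/cJ minus DBA/2J had 8, and 16 with array weights, 3 with the filter, 2 with the replicate block and 6 to 8 over removals. For day 33 minus day 5, the RC count of 0 was 3 with array weights, and the HFD count of 0 was 4 with array weights, 12 without the libraries of higher title number, and 0 to 1 over removals. The 3 calls over the 6 strain and diet pairs became 14 with voom, 10 on log2(CPM + 1), 43 with array weights, 0 with the filter, 1 (in the other direction) with the macrophage and endothelial covariates, 44 with title number as a covariate, 0 with the replicate block, 14 and 35 without the libraries of lower and higher title number, and 0 to 9 over removals. Voom kept the 0 of DBA/2J, of BALB/cJ, of the differences between strains and of both averaged day comparisons. Centring each library on its median left the all-strain count at 11. Depth limits the weakest genes: 15 of the 40 had a library with under 10 reads.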
